A study of Mus musculus with 6 samples.

Results

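The unfolded protein response and the secretory pathway were followed in 41 genes, a set of 17 chaperones and folding enzymes, 9 stress sensors and transcription factors, 9 degradation factors and 6 genes of translocation and secretion. They are a list of gene names of the pathway, drawn up with earlier results of these data known. All 41 were found among the 40824 genes of the count table, and 40 passed the filter on low counts. Derl3, a degradation factor, did not pass it, with 6 to 351 reads per library, and was not tested.

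Nuclei of hepatocytes, the main epithelial cells of the liver, were profiled by Smart-seq3xpress, a plate-based full-length RNA sequencing method, from wild-type female C57BL/6J mice mated at about 8 weeks of age. The stages were G0 (day 0 of gestation by its label), G14.5 (later in gestation, the label giving the day) and P7L (day 7 after birth, lactating). At each stage 1 library came from liver tissue and 1 from a perfused liver, giving 6 libraries with 184 to 308 nuclei and 226030591 to 379767336 reads each, 1567 nuclei in all. Pairs of values give liver tissue first and perfusion second. The labels name no animal, and their protocol describes picked whole hepatocytes rather than nuclei. The p-values therefore measure only the spread between these libraries, which may be technical.

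Proteins that enter the endoplasmic reticulum (ER) pass through the Sec61 channel, receive sugars, and fold with the help of chaperones such as the Hsp70 protein Hspa5 (BiP) and of disulfide isomerases. Those that fail to fold are pulled back to the cytosol and degraded. When unfolded protein builds up, the membrane sensors Ern1 (IRE1), Eif2ak3 (PERK) and Atf6 act through the transcription factors Xbp1, Atf4 and cleaved Atf6, which raise transcription of chaperone, degradation and secretion genes. Hepatocytes carry a large secretory load, since they make most plasma proteins. The readout here is nuclear RNA per gene: it does not separate spliced from unspliced Xbp1 RNA and holds no measure of sensor phosphorylation or of Atf6 cleavage.

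Chaperone promoters are known for the ER stress element (ERSE), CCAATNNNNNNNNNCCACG, read by Atf6 and Xbp1 together with the CCAAT-binding factor NF-Y. The promoter of Hspa5 is among those in which it was first described, so its presence there is background rather than a result. In the RefSeq windows from 250 bases before to 50 bases after a gene's start (GRCm38.p6), 36 of the 41 genes had a window. Manf, Hyou1, Atf6, Derl1 and Sec61a1 had none. On either strand, 9 of the 36 held the ERSE, against 0.137% of all 27025 genes with a window. The shorter ERSE-II, ATTGGNCCACG, which shares CCACG with the ERSE, was present in Dnajb11 and Herpud1, and in 0.0444% of all genes. The following stretches show matches in genes described below, on the strand of the gene, with the fixed letters of each match in capitals. Those of Dnajb11 and Derl3 are not shown. Where the element lies on the opposite strand, it reads CGTGG first and ATTGG last.
Hspa5 (chr2:34772020-34772048, plus strand): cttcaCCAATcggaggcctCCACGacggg
Calr (chr8:84847065-84847103, minus strand): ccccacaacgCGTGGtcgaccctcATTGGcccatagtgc
Canx (chr11:50325790-50325828, minus strand): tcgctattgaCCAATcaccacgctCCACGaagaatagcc
Pdia6 (chr12:17266481-17266519, plus strand): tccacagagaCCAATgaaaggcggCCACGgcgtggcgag
Creld2 (chr15:88819510-88819548, plus strand): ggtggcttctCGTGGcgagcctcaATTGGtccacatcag
Dnajc3 (chr14:118937817-118937855, plus strand): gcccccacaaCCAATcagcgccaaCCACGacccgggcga
Hsp90b1 (chr10:86705523-86705666, minus strand): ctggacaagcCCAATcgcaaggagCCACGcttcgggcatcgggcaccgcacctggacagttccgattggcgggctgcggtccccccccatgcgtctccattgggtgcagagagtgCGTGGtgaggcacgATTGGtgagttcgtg
Syvn1 (chr19:6046522-6046560, plus strand): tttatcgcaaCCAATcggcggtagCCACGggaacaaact
Herpud1 (chr8:94386307-94386397, plus strand): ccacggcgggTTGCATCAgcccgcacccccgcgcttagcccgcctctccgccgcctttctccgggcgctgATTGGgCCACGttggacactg

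In Hspa5 the element ran from base -65 to base -47 counted from the RefSeq start, a stretch that GENCODE places in the first exon of a longer Hspa5 transcript. Hsp90b1 held 2 elements, 1 on each strand. The Herpud1 stretch also holds TGATGCAA, the core of the C/EBP-ATF element read by Atf4, on the opposite strand, and this sequence was in 1.03% of all genes. The unfolded protein response element, TGACGTGG or TGACGTGA, of which the first contains the reverse of CCACG, was found in Hspa5, Txndc5, Txndc11 and Sec24d, and in 1.22% of all genes. A match describes these letters in this window and is not evidence of binding.

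In nuclei at G14.5, RNA of the pathway was higher than at G0 across all 4 role groups. Of the 40 tested genes, 18 rose at G14.5 and none fell (edgeR adjusted p under 0.05), against 6.93% of all 15015 tested genes called higher and 5.01% called lower. The median log2 fold change of the 40 genes was 0.68, against -0.01 over all tested genes. From G14.5 to P7L, 25 of the 40 fell and none rose, against 5.06% of all genes called lower and 4.20% called higher, and the median log2 fold change was -1.02, against 0.00 over all genes. The counts of 0 were also 0 with limma-voom. DESeq2, and an unadjusted p under 0.05 in edgeR, each gave 1 gene against the trend, Trib3, in either comparison. Libraries were also left out 1 at a time. With G14.5 liver tissue left out, 9 genes were called higher at G14.5. Counts lower at P7L were 13 without either G14.5 library, 9 without P7L liver tissue and 12 without P7L perfusion. Both comparisons use the same G14.5 libraries, so they are not independent of each other. Rising at G14.5 and falling at P7L held for 17 of the 40 genes and for 3.17% of all tested genes. Both G14.5 libraries lay above all 4 others in 30 of the 40 genes, against 16.2% of all genes.

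The summed level of the 17 chaperones and folding enzymes, in reads per 1000000 of the scaled library (CPM), was 1136 in the G0 liver tissue library and 1101 in the G0 perfusion library. The G14.5 libraries reached 2047 and 2005, those of P7L 862 and 859. Preparations differed little beside stages, and the G14.5 libraries stood above all others. Of the 41 genes together the sum was 5133 and 5047 CPM (G0), 8801 and 8605 (G14.5) and 4771 and 5536 (P7L). Exons of several genes, among them Pdia6, Txndc5, Txndc11, Hsp90b1, Syvn1 and Derl2, overlap those of a neighbouring gene, so their counts could include its reads. The plot of levels by library shows each gene in each library.

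**Figure D1:**
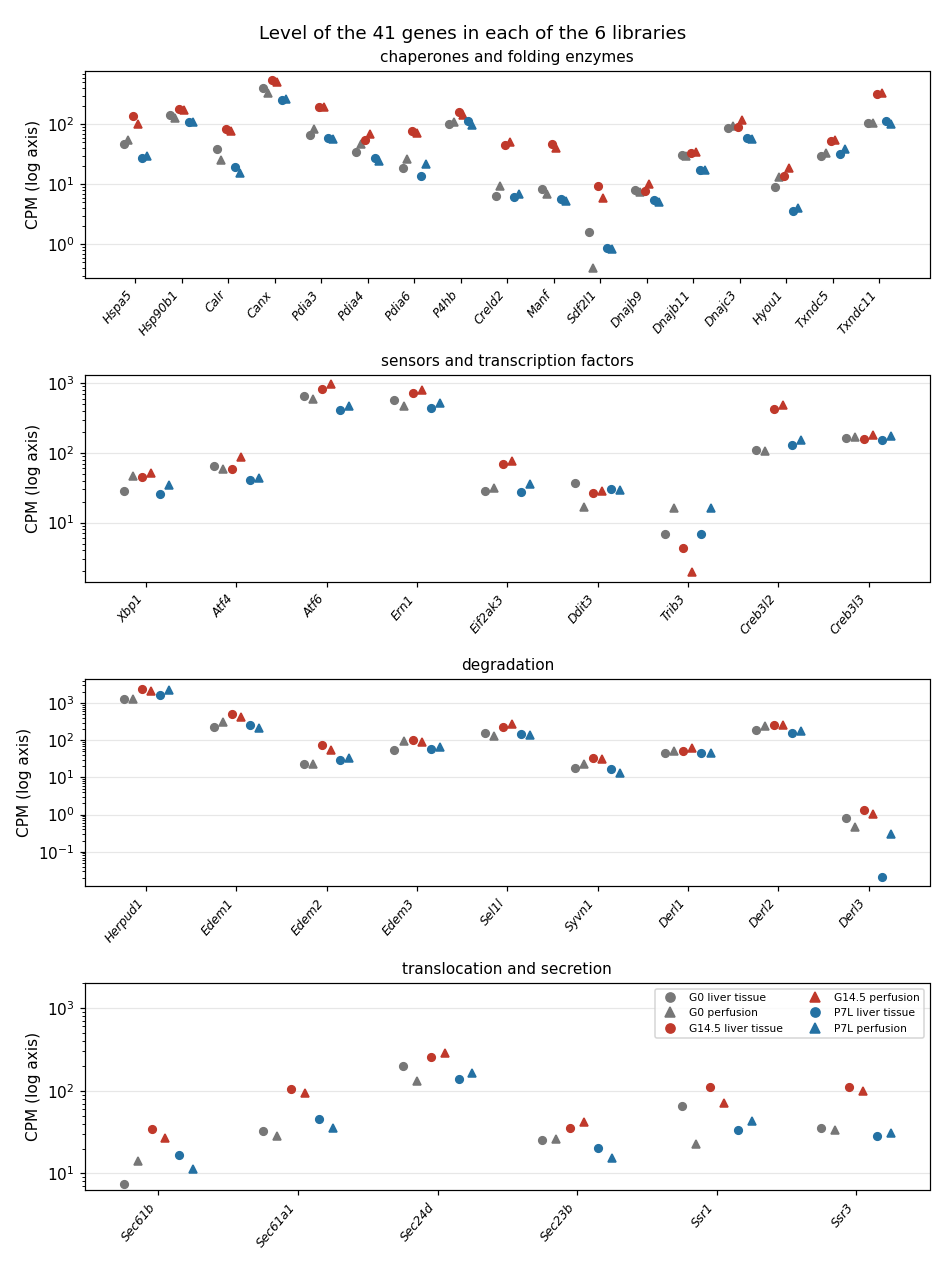
Level of each of the 41 genes (CPM, log axis) in the 6 libraries, 1 panel per role group; circles are liver tissue and triangles perfusion, grey G0, red G14.5 and blue P7L. In 30 of the 40 tested genes both red points lie above the 4 others.

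Among the chaperones, 9 of 17 rose at G14.5 and 14 of 17 fell from G14.5 to P7L. Hspa5 (chromosome 2, 34771970-34777547), the ER Hsp70 chaperone that also holds the stress sensors inactive, stood at 46.7 CPM in liver tissue and 55.7 in perfusion (G0), 139 and 103 (G14.5) and 27.9 and 29.4 (P7L). The libraries of the 3 stages did not overlap, with P7L lowest. Its log2 fold change was 1.23 ± 0.22 (SE) at G14.5 against G0 (edgeR adjusted p = 0.0147) and -2.07 ± 0.22 at P7L against G14.5 (edgeR adjusted p = 0.00233). The rise at G14.5 was no longer called when the liver tissue library of G14.5 was left out.

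The largest fold changes at G14.5 among the chaperones belonged to Creld2, Manf and Sdf2l1. Creld2 (chromosome 15, 88819646-88826683), an ER stress-inducible protein with EGF-like repeats, stood at 6.33 and 9.33 CPM (G0), 45.5 and 51.3 (G14.5) and 6.06 and 6.76 (P7L). Its G14.5 libraries lay far from the other 4, and the log2 fold change was 2.65 ± 0.28 at G14.5 against G0 (edgeR adjusted p = 0.00219). Manf, a small ER-resident protein that can be secreted, stood at 8.46 and 6.93 CPM (G0), 46.3 and 40.6 (G14.5) and 5.77 and 5.32 (P7L). Its log2 fold change was 2.50 ± 0.27 (edgeR adjusted p = 0.00257), and P7L lay below G0 in both preparations. Exons of Manf overlap those of Rbm15b on the same strand and of Dcaf1 on the other, so its counts could include reads of these genes. Sdf2l1, part of an ER chaperone complex with Dnajb11, stood at 1.59 and 0.398 CPM (G0), 9.22 and 5.93 (G14.5) and 0.883 and 0.849 (P7L), a log2 fold change of 3.11 ± 0.66 at G14.5 (edgeR adjusted p = 0.0267). The rise of Sdf2l1 was lost without either G14.5 library and without the G0 perfusion library, and its fall at P7L (-3.04 ± 0.65, edgeR adjusted p = 0.0309) without any 1 of the G14.5 or P7L libraries. With 1 library left out, its log2 fold change at G14.5 ran from 2.39 without G0 perfusion to 4.05 without G0 liver tissue, and at P7L against G14.5 from -3.75 without P7L perfusion to -2.50 without P7L liver tissue.

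The lectin chaperones Calr and Canx, which bind glycoproteins, and their partner isomerase Pdia3 all rose at G14.5 and fell at P7L. Calr stood at 38.6 and 25.5 CPM (G0), 82.4 and 77.3 (G14.5) and 19.3 and 15.5 (P7L). Canx stood at 403 and 332 CPM (G0), 544 and 511 (G14.5) and 252 and 266 (P7L). In both genes the 3 stages did not overlap and P7L was lowest. Pdia3 stood at 66.5 and 82.0 CPM (G0), 198 and 195 (G14.5) and 59.1 and 55.9 (P7L), with a log2 fold change of 1.41 ± 0.17 at G14.5 (edgeR adjusted p = 0.00359) and -1.77 ± 0.17 at P7L against G14.5 (edgeR adjusted p = 0.00151). The log2 fold change at G14.5 was 1.35 ± 0.22 for Calr (edgeR adjusted p = 0.0111) and 0.52 ± 0.13 for Canx (edgeR adjusted p = 0.045). The Canx call was lost under 10 of the 16 alternatives, and the Calr call under 3, 1 of them the fit without the G14.5 perfusion library. The fall of Canx at P7L was lost without the P7L liver tissue library. A pseudogene of Calr is annotated, and Pdia3 exons overlap Catsper2 on the other strand, so reads could be split.

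Of the other genes of disulfide chemistry, some were called and some were not. Pdia6, an isomerase, stood at 19.0 and 26.3 CPM (G0), 78.7 and 72.8 (G14.5) and 13.5 and 21.9 (P7L), and its log2 fold change at G14.5 was 1.78 ± 0.26 (edgeR adjusted p = 0.00782), a call lost without the G14.5 liver tissue library. Txndc11, a thioredoxin-domain membrane protein that works with the Edem mannosidases, stood at 104 CPM in both G0 libraries, 315 and 329 (G14.5) and 112 and 103 (P7L). Its G0 and P7L libraries overlapped, and its log2 fold change at G14.5 was 1.63 ± 0.14 (edgeR adjusted p = 0.000887). P4hb, the abundant isomerase that is also a subunit of prolyl hydroxylase, stood at 99.6 and 109 CPM (G0), 158 and 144 (G14.5) and 115 and 98.4 (P7L). It was not called in the main edgeR fit (0.53 ± 0.16 at G14.5, edgeR adjusted p = 0.0726). P4hb was called higher at G14.5 by DESeq2, with thinned nuclei and without the G0 perfusion library, and lower at P7L against G14.5 without either G0 library. Txndc5, an isomerase with thioredoxin-like domains, stood at 29.5 and 33.3, 52.7 and 55.4, and 31.5 and 39.3 CPM, just outside the threshold at G14.5 (0.79 ± 0.21, edgeR adjusted p = 0.051). DESeq2 (adjusted p = 0.00139), thinned nuclei, the fit with no preparation term and the authors' values with a pseudocount of 1 called Txndc5 higher at G14.5, and DESeq2 called it lower at P7L against G14.5 (adjusted p = 0.019).

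A further 5 chaperone genes were called by edgeR at P7L against G14.5, all lower, and in no other stage comparison: Hsp90b1, Pdia4, Dnajb11, Dnajc3 and Hyou1. Whether their change at G14.5 differed from that of the genes called there was not tested. Hyou1, a nucleotide exchange factor of Hspa5, stood at 9.12 and 13.1 CPM (G0), 13.6 and 18.7 (G14.5) and 3.57 and 3.95 (P7L), with a log2 fold change of -2.09 ± 0.33 (edgeR adjusted p = 0.0103). Its P7L libraries were lower than all 4 others. Hsp90b1, the ER Hsp90, stood at 143 and 125 CPM (G0), 182 and 171 (G14.5) and 108 and 109 (P7L) (-0.70 ± 0.14, edgeR adjusted p = 0.0256). Pdia4, an isomerase, stood at 34.8 and 47.8, 54.1 and 68.1, and 27.4 and 24.5 CPM (-1.22 ± 0.23, edgeR adjusted p = 0.0207).

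Of the Hspa5 co-chaperones, Dnajb11 stood at 30.3 and 29.8 CPM in the G0 libraries, 32.8 and 35.2 at G14.5, and 17.2 in both P7L libraries (-0.98 ± 0.23 at P7L against G14.5, edgeR adjusted p = 0.042). Dnajc3, also an inhibitor of Eif2ak3, stood at 87.4 and 93.7, 89.9 and 118, and 58.1 and 57.3 CPM (-0.84 ± 0.18, edgeR adjusted p = 0.0291). In both genes P7L lay below the other stages, and G0 and G14.5 lay close together, with log2 fold changes of 0.18 ± 0.23 and 0.19 ± 0.18 at G14.5. Dnajb9, a co-chaperone with an inhibitory action on Ern1, stood between 5.05 and 10.0 CPM in all libraries and was called nowhere. Without any 1 of the G14.5 or P7L libraries, the calls of Hsp90b1, Pdia4, Dnajb11, Dnajc3 and Hyou1 at P7L against G14.5 were lost.

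**Figure D2:**
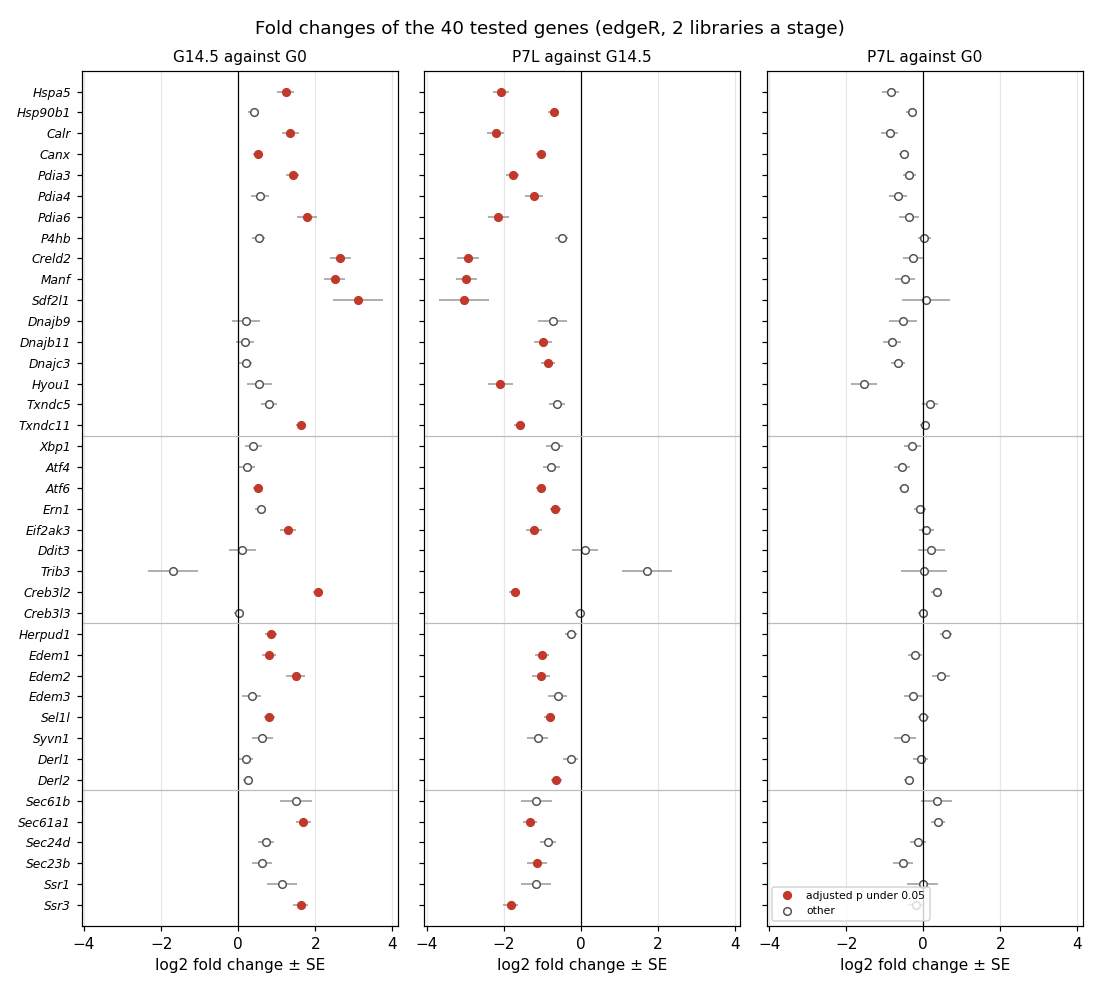
Log2 fold change ± SE (edgeR, 2 libraries per stage) of the 40 tested genes in the 3 stage comparisons, ordered by role with grey lines between roles; red points passed an adjusted p under 0.05. Red points lie right of 0 for 18 genes at G14.5 against G0 and left of 0 for 25 at P7L against G14.5, and none is red at P7L against G0.

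Of the sensors and transcription factors, 3 of 9 rose at G14.5 and 4 of 9 fell at P7L. Their sum was 1651 and 1515 CPM (G0), 2355 and 2680 (G14.5) and 1267 and 1488 (P7L). The membrane-bound factor Creb3l2 (chromosome 6, 37327255-37442146), a relative of Atf6 known to drive secretory genes in cartilage, stood at 111 and 107 CPM (G0), 433 and 483 (G14.5) and 129 and 151 (P7L). Its G14.5 libraries lay far above the rest, and P7L lay slightly above G0 in both preparations. The log2 fold change was 2.07 ± 0.14 at G14.5 (edgeR adjusted p = 0.000379), the smallest p among the 40 genes, and -1.71 ± 0.14 at P7L against G14.5 (edgeR adjusted p = 0.000758). Creb3l3, its relative known for hepatocyte expression, stood at 163 and 169.7 CPM (G0), 158 and 180.3 (G14.5) and 153 and 177 (P7L). The stages overlapped throughout for Creb3l3, and its log2 fold change at G14.5 was 0.02 ± 0.13 (edgeR adjusted p = 0.941).

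Among the 3 stress sensors, Eif2ak3, the kinase that slows translation, stood at 28.6 and 31.0 CPM (G0), 68.9 and 76.6 (G14.5) and 27.5 and 35.7 (P7L), with a log2 fold change of 1.29 ± 0.20 at G14.5 (edgeR adjusted p = 0.00964). That call was lost without the G14.5 liver tissue library, and its fall at P7L without any 1 of the G14.5 or P7L libraries. Atf6 stood at 647 and 603 CPM (G0), 829.9 and 963 (G14.5) and 407 and 476 (P7L), with log2 fold changes of 0.51 ± 0.13 (edgeR adjusted p = 0.0435) and -1.02 ± 0.13 at P7L against G14.5 (edgeR adjusted p = 0.00396). Its stages did not overlap, with P7L lowest, its rise at G14.5 was lost under 10 of the 16 alternatives, and its fall at P7L without the P7L liver tissue library. Ern1, the kinase and endonuclease that splices Xbp1 RNA, stood at 566 and 464 CPM (G0), 731 and 809 (G14.5) and 447 and 526 (P7L). It fell at P7L against G14.5 (-0.66 ± 0.15, edgeR adjusted p = 0.0371), a call lost without any 1 of the G14.5 or P7L libraries, and at G14.5 it lay at the threshold (0.58 ± 0.15, edgeR adjusted p = 0.0503) and passed it under DESeq2, limma-voom, thinned nuclei and no preparation term, and without the G0 liver tissue library.

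The downstream factors were not called in the main edgeR fit in any stage comparison. Xbp1, the splicing target of Ern1, stood at 28.3 and 47.3 CPM (G0), 44.5 and 51.9 (G14.5) and 26.0 and 34.6 (P7L). Its G0 and G14.5 libraries overlapped, and within each stage the perfusion library was the higher. Atf4, the translationally controlled factor of the Eif2ak3 branch, stood at 63.9 and 59.7 CPM (G0), 59.7 and 86.0 (G14.5) and 41.5 and 43.4 (P7L). The log2 fold change at G14.5 was 0.39 ± 0.22 for Xbp1 and 0.22 ± 0.21 for Atf4 (edgeR adjusted p = 0.297 and 0.542). At P7L against G14.5 Atf4 had a log2 fold change of -0.77 ± 0.22 (edgeR adjusted p = 0.0739) and was called without either G0 library, by DESeq2 and with thinned nuclei. DESeq2 also called Xbp1 lower at P7L against G14.5 (-0.69, adjusted p = 0.0216).

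Ddit3 (CHOP), a factor linked to cell death under lasting stress, stood at 36.7 and 16.9 CPM (G0), 26.3 and 28.8 (G14.5) and 30.4 and 29.2 (P7L). The G0 libraries lay on either side of all the others. Ddit3 exons overlap Mars on the other strand and a second gene ID of the same name, so its counts are uncertain. Trib3, a pseudokinase induced by Atf4 and Ddit3, was the only tested gene with a negative log2 fold change at G14.5, though with library size alone as the scaling those of Ddit3 and Creb3l3 were also below 0, at -0.01 and -0.10. It stood at 6.90 and 16.0 CPM (G0), 4.29 and 1.93 (G14.5) and 6.82 and 16.4 (P7L). Both G14.5 libraries were the lowest of the 6, and the log2 fold change was -1.69 ± 0.65 (edgeR adjusted p = 0.138). With 1 library left out it ran from -3.06 without G14.5 liver tissue to -0.66 without G14.5 perfusion, so single libraries set its size. DESeq2, and edgeR without the G14.5 liver tissue library, called Trib3 lower at G14.5 than at G0 and higher at P7L than at G14.5.

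Among the degradation genes, 4 of 8 tested rose at G14.5 and 4 of 8 fell at P7L. The group's sum was 1982 and 2173 CPM (G0), 3745 and 3297 (G14.5) and 2359.7 and 2890.2 (P7L), of which Herpud1 alone made up 67.2% of the reads. Herpud1 (chromosome 8, 94386438-94395377), a membrane scaffold of the degradation complex, stood at 1254 and 1303 CPM (G0), 2473 and 2110.1 (G14.5) and 1649 and 2200.3 (P7L). It rose at G14.5 (0.85 ± 0.16, edgeR adjusted p = 0.0166), a call lost without the G14.5 liver tissue library. Its P7L perfusion library lay between the G14.5 libraries, and the log2 fold change at P7L against G14.5 was -0.26 ± 0.16 (edgeR adjusted p = 0.37). Without Herpud1 the group's log2 ratio at P7L against G14.5, averaged over the preparations, was -0.81 ± 0.04 (SD, n = 2).

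The mannosidase-like proteins Edem1 and Edem2, which mark misfolded glycoproteins, and Sel1l, the scaffold of the ubiquitin ligase Syvn1, rose at G14.5 and fell at P7L. Edem2 stood at 23.7 and 23.2 CPM (G0), 76.6 and 56.0 (G14.5) and 30.2 and 34.2 (P7L), with a log2 fold change of 1.49 ± 0.24 at G14.5 (edgeR adjusted p = 0.0101). Edem1 stood at 234 and 302 CPM (G0), 522 and 419 (G14.5) and 253 and 212 (P7L) (0.80 ± 0.18, edgeR adjusted p = 0.034). Sel1l stood at 156 and 132, 234 and 268, and 149.8 and 137 CPM (0.81 ± 0.15, edgeR adjusted p = 0.0188). In these genes the G14.5 libraries lay above all others, and P7L and G0 overlapped only in Edem1 and Sel1l.

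The rise of Edem1 was lost without the G0 or the G14.5 liver tissue library, that of Edem2 without the G14.5 liver tissue library, and that of Sel1l without the G14.5 perfusion library. The falls at P7L were lost without either P7L library in all 3 genes, and also without the G14.5 liver tissue library in Edem1 and Edem2 and the G14.5 perfusion library in Edem2 and Sel1l. Derl2, a channel-like membrane protein, fell at P7L against G14.5 (255 and 263 against 156 and 181 CPM, -0.63 ± 0.13, edgeR adjusted p = 0.0301), a call lost without any 1 of these 4 libraries. Its G0 libraries stood at 195 and 241 CPM. Edem3, Syvn1 and Derl1 were not called in the main edgeR fit. Edem3 ran from 54.8 to 99.3 CPM and Derl1 from 45.9 to 60.6, and Syvn1 stood at 18.4 and 23.2, 33.1 and 31.5, and 16.9 and 12.9 CPM. The log2 fold changes at G14.5 were 0.35 ± 0.25 for Edem3, 0.63 ± 0.28 for Syvn1 and 0.19 ± 0.19 for Derl1. At P7L against G14.5 Edem3 was called without the G0 liver tissue library and Syvn1 without either G0 library, by DESeq2, with thinned nuclei and with no preparation term. Derl3, untested, stood between 0.0215 and 1.37 CPM, with the G14.5 libraries highest and the P7L libraries lowest.

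Of the genes of translocation and secretion, 2 of 6 rose at G14.5 and 3 of 6 fell at P7L. Sec61a1 (chromosome 6, 88503579-88518905), the pore of the Sec61 channel, stood at 33.0 and 28.7 CPM (G0), 104 and 94.8 (G14.5) and 45.0 and 35.2 (P7L). Its stages did not overlap, P7L lay between G0 and G14.5, and the log2 fold change was 1.69 ± 0.19 at G14.5 (edgeR adjusted p = 0.00275). Its fall at P7L (-1.32 ± 0.19, edgeR adjusted p = 0.0063) was lost without either P7L library. Ssr3, a subunit of the translocon-associated complex, stood at 35.3 and 33.1 CPM (G0), 111 and 98.9 (G14.5) and 28.2 and 31.1 (P7L), with log2 fold changes of 1.62 ± 0.19 (edgeR adjusted p = 0.00347) and -1.82 ± 0.19 at P7L against G14.5 (edgeR adjusted p = 0.00215). The COPII coat gene Sec23b stood at 25.2 and 25.9, 35.6 and 42.5, and 20.3 and 15.4 CPM, and fell at P7L against G14.5 (-1.13 ± 0.26, edgeR adjusted p = 0.04), a call lost without any 1 of the G14.5 or P7L libraries.

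The other 3 genes of this group were not called in the main edgeR fit, although their G14.5 libraries lay above all others. Sec61b, the small channel subunit, stood at 7.53 and 14.3 CPM (G0), 34.9 and 27.0 (G14.5) and 16.6 and 11.3 (P7L) (1.5 ± 0.41 at G14.5, edgeR adjusted p = 0.0573). Ssr1 stood at 65.2 and 22.9, 112 and 71.5, and 33.8 and 42.7 CPM, and its G0 libraries were far apart (1.14 ± 0.39, edgeR adjusted p = 0.105). Sec24d, the cargo-binding COPII subunit, stood at 197 and 133, 256 and 288, and 137 and 163 CPM (0.73 ± 0.21, edgeR adjusted p = 0.0685). DESeq2 called all 3 in both comparisons with G14.5 (adjusted p = 0.00124 for Sec61b, 0.0263 for Sec24d and 0.0199 for Ssr1 at G14.5 against G0). Sec61b was also called at G14.5 against G0 by limma-voom, with thinned nuclei and with no preparation term, and Sec24d with no preparation term. For P7L against G14.5, Sec24d and Ssr1 were called with thinned nuclei, and Sec24d with no preparation term. At P7L against G14.5 all 3 were called without either G0 library, and Ssr1 also without the P7L perfusion library. At G14.5 against G0, Sec61b was called without the G0 perfusion library, Sec24d without the G0 liver tissue library, and Ssr1 without the G0 liver tissue library or either P7L library.

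At P7L against G0 none of the 40 genes was called by edgeR, against 1.56% of all tested genes called higher and 1.36% called lower. At an unadjusted p under 0.05 there were 12, of which 10 were lower at P7L, against 3183 of all 15015 tested genes in either direction. DESeq2 called 5 lower at P7L (Hspa5, Calr, Dnajb11, Dnajc3 and Hyou1), limma-voom 0, and edgeR on nuclei thinned to 250000 reads 3 (Hspa5, Calr and Canx). Over all genes DESeq2 called 757 of 15015 lower, limma-voom 201 of 15015, and edgeR on thinned nuclei 386 of 13303. Both P7L libraries lay below both G0 libraries in 17 of the 40 genes, against 27.0% of all tested genes, and 11 of those 17 were chaperones or folding enzymes. The largest difference was that of Hyou1, with a log2 fold change of -1.54 ± 0.33 (edgeR adjusted p = 0.0579), followed by Calr at -0.87 ± 0.22 and Hspa5 at -0.84 ± 0.22 (edgeR adjusted p = 0.0833 and 0.0871). In the other direction, both P7L libraries lay above both G0 libraries for Creb3l2, Herpud1, Edem2 and Sec61a1. The share of all tested genes in that direction is not given here. The log2 fold change of Herpud1 was 0.59 ± 0.16 (edgeR adjusted p = 0.0906), called without the G14.5 perfusion library. Without the G0 perfusion library Canx and Atf6 were called lower at P7L.

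Between perfusion and liver tissue none of the 40 genes was called, and 0% of all tested genes (edgeR; at an unadjusted p under 0.05, 1 of the 40 and 707 of all genes; DESeq2 and limma-voom each called 0 of the 40). The gene at that unadjusted threshold was Xbp1, higher in perfusion by 0.46 ± 0.18 on the log2 scale. All 18 genes called higher at G14.5 and all 25 called lower at P7L against G14.5 had the same direction in liver tissue and in perfusion. Both preparations enter each call, so called genes are selected for such agreement, and it is no separate replication. Over the 40 tested genes the direction was the same in both preparations for 35 at G14.5 against G0. At P7L against G14.5 it was the same for 39. The median log2 ratio of the 40 genes at G14.5 against G0 was 0.72 in either preparation.

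Per unit of gene length, on the deposited TPM-like scale, Herpud1 was the most abundant of the 41 genes, with stage means of 210.1 at G0, 344 at G14.5 and 310.2 at P7L. Canx, Atf6, Ern1 and Creb3l3 followed, with means over the 6 libraries of 27.2, 26.2, 25.0 and 21.9. Their order depended on the stage: at G0 the libraries of each overlapped those of its neighbour, at G14.5 both libraries of Atf6 lay above Ern1 and both of Ern1 above Creb3l3, and at P7L Creb3l3 had the highest stage mean of the 4, at 22.8, and Atf6 the lowest, at 19.0. Over the 6 libraries Hyou1, at 0.636, and Derl3, at 0.146, had the lowest means, but at P7L Sdf2l1, at 0.214, lay below Hyou1, at 0.261. Creld2 and Manf had stage means of 1.77 and 1.26 at G0 and 10.3 and 5.71 at G14.5. Sdf2l1 stood on this scale at 1.92 and 0.191 (G0) and 2.56 and 1.61 (G14.5), so its stages overlapped, and limma on these values did not call it (0.71 with a pseudocount of 1, adjusted p = 0.35).

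The difference in chaperone level at G14.5 was also seen over single nuclei. The median summed chaperone level per nucleus was 959 CPM in the G0 liver tissue library (quartiles 701 and 1454) and 936 in G0 perfusion (643 and 1406). At G14.5 it was 1860.2 (1423 and 2401) and 1739 (1374 and 2138), and at P7L 815 in both libraries. The lower quartile of the G14.5 nuclei thus lay near the upper quartile at G0. Of the G14.5 nuclei, 73.7% in liver tissue and 69.8% in perfusion lay above the upper quartile of all G0 nuclei, against 11.7% and 9.40% of P7L nuclei. For degradation genes the medians were 3381 and 2688 CPM (G14.5) and 2361 and 2870 (P7L), so in perfusion the P7L nuclei had the higher median. For degradation genes, 59.8% of G14.5 nuclei in liver tissue and 43.9% in perfusion lay above the upper quartile of G0 nuclei. At P7L these shares were 31.2% and 45.0%. Herpud1 alone made up 67.2% of this group's reads, so these values mostly describe 1 gene. Sums per nucleus without Herpud1 are not given here. In the summed libraries all 8 tested degradation genes had a negative log2 fold change at P7L against G14.5.

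**Figure D3:**
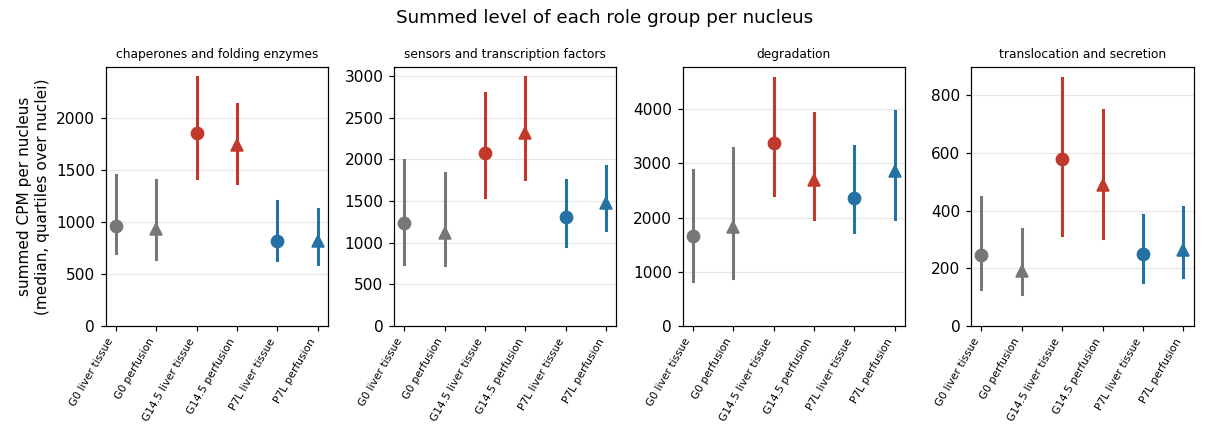
Summed CPM per nucleus of each role group in the 6 libraries; points are medians and bars run from the lower to the upper quartile over nuclei. Chaperone medians were 959 and 936 in the G0 libraries, 1860.2 and 1739 at G14.5 and 815 in both P7L libraries. In the degradation panel Herpud1 alone made up 67.2% of the reads.

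With each nucleus thinned to 250000 reads, which left out 15 and 3 nuclei (G0), 0 and 1 (G14.5) and 14 and 2 (P7L), more genes of the set were detected per nucleus at G14.5. The median number of the 41 genes with a read was 27 and 26 in the G0 libraries, 33 in both G14.5 libraries and 29 in both P7L libraries. How many of all tested genes were detected per nucleus is not given here, so these medians do not single out this set. Creld2 had a read in 18.1% and 19.3% of nuclei in the G0 libraries, 73.7% and 75.0% (G14.5) and 20.4% and 24.7% (P7L). Manf went from 30.4% and 22.1% to 83.0% and 77.0%, and back to 28.2% and 31.4%. Trib3 went the other way, from 19.4% and 27.1% at G0 to 7.14% and 6.00% (G14.5) and 27.2% and 38.2% (P7L). Unthinned, Creld2 had a read in 25.0% and 29.3% of nuclei in the G0 libraries, 79.9% and 86.4% (G14.5) and 26.3% and 33.2% (P7L). In Creld2 and Manf most nuclei held a read at G14.5 and a minority at the other stages.

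From G0 to G14.5 the share of nuclei with a read was higher for 36 of the 41 genes in liver tissue and for 39 in perfusion. No matching share over all tested genes is given here, so how these counts stand against other genes cannot be told. The median difference over the 41 genes was 12.6 percentage points in liver tissue and 16.2 in perfusion. Before thinning the median reads per nucleus ran from 731494.5 to 1191576 over the libraries.

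**Figure D4:**
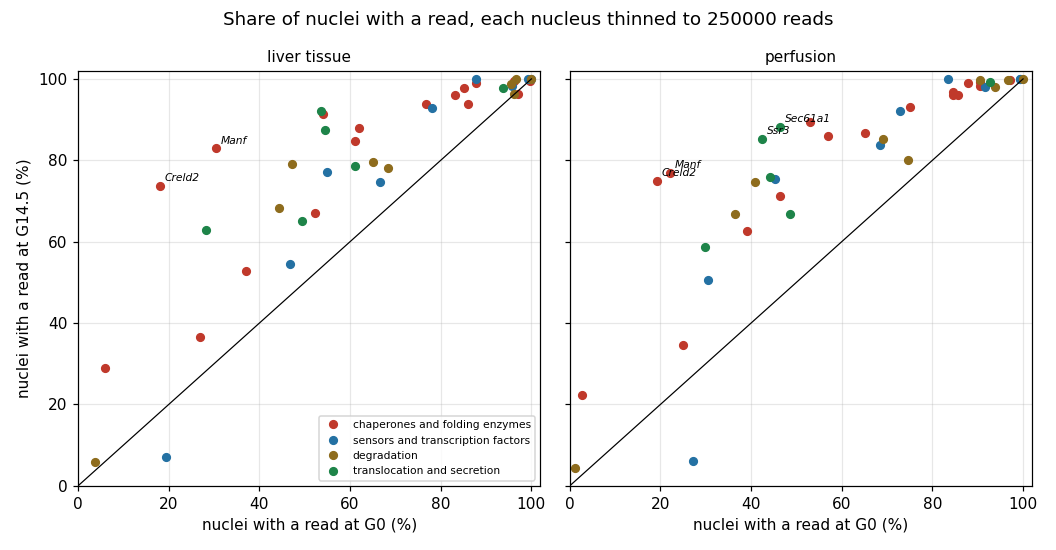
Share of nuclei with at least 1 read at G0 (x axis, %) and at G14.5 (y axis, %) for each of the 41 genes, nuclei thinned to 250000 reads, coloured by role; the line marks equal shares and genes over 40 points from it are named. Creld2 and Manf lie far above the line in both preparations.

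Within a library, correlations between the genes over nuclei were weak. Among 32 genes with reads in at least 50% of nuclei of every library, the 496 pairs had a median Spearman rho of 0.03, and none reached a median of 0.2 over the 6 libraries. The highest was Hspa5 with Calr, at a median of 0.186 and a range from -0.011 to 0.283, which at these counts is no finding. Summed role groups followed the lobule axis weakly: with a pericentral to periportal index, rho ran from -0.22 to 0.09 over the 4 role groups and 6 libraries. Nuclei of 1 library share its preparation, and these values are descriptions.

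Genes with and without a promoter element can be set side by side. Of the 10 tested genes with an ERSE or ERSE-II in the window, 6 rose at G14.5 and 8 fell at P7L against G14.5, with a median log2 fold change of 0.74 at G14.5. Of the 25 with a window and neither element, 9 rose and 13 fell, with a median of 0.73. The 9 that rose with no such match in the window were Creb3l2, Pdia3, Txndc11, Ssr3, Sdf2l1, Eif2ak3, Edem1, Edem2 and Sel1l. Hsp90b1, Dnajb11, Dnajc3 and Syvn1, which hold at least 1 match, were not called at G14.5. The difference between these sets was not tested. Genes without a window are in neither set: Manf, Atf6 and Sec61a1, which rose at G14.5 and fell at P7L, Hyou1, which fell, and Derl1.

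Other genes of the pathway, in 8 lists with 175 tested genes, were counted in the same fit: 35 rose and 6 fell at G14.5, and 1 rose and 30 fell at P7L against G14.5. The background was 6.93% higher and 5.01% lower of all tested genes at G14.5, and 4.20% higher and 5.06% lower at P7L against G14.5. Of 35 vesicle coat and cargo receptor genes, 12 rose at G14.5 and 2 fell, and 10 fell at P7L. Copz1, a COPI subunit, had a log2 fold change of 1.53 ± 0.13 at G14.5 (edgeR adjusted p = 0.00103), and Kdelr2, the receptor that returns chaperones to the ER, of 1.42 ± 0.16 (edgeR adjusted p = 0.00317). The 2 that fell at G14.5 were Mia3, a cargo receptor for large proteins (-0.98 ± 0.14, edgeR adjusted p = 0.00672), and Golgb1, a Golgi tether (-0.81 ± 0.16, edgeR adjusted p = 0.0208).

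Of 23 N-glycosylation genes, 6 rose at G14.5 and 7 fell at P7L, among them Slc33a1, the ER acetyl-CoA transporter (1.22 ± 0.15 and -1.32 ± 0.15), and Gfpt1, the first enzyme of hexosamine synthesis (1.54 ± 0.26 and -1.54 ± 0.26). Of 22 signal recognition and translocation genes, 5 rose at G14.5 and 5 fell at P7L; the first include Spcs3, a signal peptidase subunit (1.87 ± 0.29 at G14.5, edgeR adjusted p = 0.00919). Of 24 further ER folding genes, 4 rose at G14.5, led by Ppib, an ER cyclophilin (2.15 ± 0.28, edgeR adjusted p = 0.00449), and 2 fell at P7L. Of 21 further degradation genes, 4 rose at G14.5 and 2 fell at P7L. The 2 that fell in each of these last lists are close to the background.

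The Atf4 and integrated stress response list gave counts near the background of 6.93% higher and 5.01% lower at G14.5. Of its 31 tested genes 3 rose at G14.5, with log2 fold changes of 1.88 for Cars, 3.32 for Nupr1 and 1.01 for Ppp1r15b. A further 3 fell, with -4.06 for Vldlr, -2.83 for Phgdh and -0.50 for Cth, and at P7L against G14.5 1 rose and 4 fell. None of 10 tested partners and decay substrates of Ern1 was called by edgeR in any stage comparison. At an unadjusted p under 0.05 there were 1 at G14.5 against G0, 0 at P7L against G0 and 2 at P7L against G14.5. Over all 15015 tested genes these numbers were 4398, 3183 and 3549. Of 9 other membrane-bound transcription factors and their proteases, Scap, the escort of the sterol-regulated factors, rose at G14.5 (1.13 ± 0.16, edgeR adjusted p = 0.0075), and Srebf1, a lipid synthesis factor, fell (-1.81 ± 0.30, edgeR adjusted p = 0.0122).

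Hepatocyte markers held 1.5% to 1.81% of the reads of each library, and the lists of other cell types at most 0.0264%, with no nucleus above 1% for any of them. The B cell and plasma cell list moved with the stages: from 0.00456% and 0.00461% of reads (G0) to 0.00992% and 0.00771% (G14.5) and 0.00385% and 0.00443% (P7L). Of its 9 genes in the table, 4 were tested and Sdc1 alone was called, higher at G14.5 (1.10 ± 0.21, edgeR adjusted p = 0.018) and lower at P7L. At G14.5 against G0 the log2 fold change was positive in 2 of the 4 and negative in 2, with a median of -0.47. Of the 9, Ms4a1 had 0 reads in all libraries. In a list of cytosolic heat shock and immediate early genes, 7 of 19 tested genes were lower at G14.5 than at G0, against 5.01% of all genes. Egr1 led them (-2.41 ± 0.32, edgeR adjusted p = 0.00494). At P7L against G14.5 only Hspb1 was called, and it was higher. At P7L against G0 the 3 genes Egr1, Fos and Dusp1 were called lower, against 1.36% of all genes. The list had a median log2 fold change of 0.04 at P7L against G14.5 and -0.45 at P7L against G0. Its share of all reads went from 0.0700% and 0.0903% (G0) to 0.0496% and 0.0546% (G14.5) and 0.0529% and 0.0761% (P7L), and the part of either list in the results above was not tested.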

How the data were processed

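Read counts per gene and nucleus were deposited by the authors. The submitters' processing notes name featureCounts 1.5.3, Trimmomatic 0.39 and HISAT2 2.1.0, with the build GRCm38 (mm10). The strand setting is not given in the sources used here. The deposited TPM-like values were made by the authors from counts divided by a length per gene and scaled to 100000 per nucleus, where the values show that the sum skips 3 genes, Fabp1, Alb and Apoa2.

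Each library's counts are sums over its nuclei (226030591 to 379767336 reads). No doublet caller was run. The liver tissue library of a stage is replicate 1 and the perfusion library replicate 2. Tested genes passed filterByExpr (by stage) and were seen in at least 5% of the nuclei of 2 or more libraries. Under R 4.3.3 and edgeR 4.0.16, 1 robust quasi-likelihood model with TMM scaling took in the 6 libraries, with stage plus preparation as its terms and 2 residual degrees of freedom. Its F test p-values were adjusted by Benjamini-Hochberg across the 15015 tested genes. CPM of a library are counts per 1000000 of its TMM library size. CPM of a nucleus are counts per 1000000 of its own reads, without TMM scaling. Values over nuclei carry no test. Reads were counted with no molecular identifiers and are not independent molecules.

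The 41 genes and all lists were chosen with earlier results of these data known. Every gene of the set is accounted for; genes called in a stage comparison have their values in all libraries. Up to 3 called genes of another list were named by the smallest p per comparison; further names there (Golgb1, Mia3, those of the Atf4 list) and in the marker lists (Sdc1, Ms4a1) were chosen after their values were seen. Gene positions are from GENCODE M21 and promoter windows from RefSeq (GRCm38.p6). Protein sequences were not used here. Alternatives were other scaling, filters and tools (limma 3.58.1, DESeq2 1.42.0), no preparation term, thinned nuclei, the authors' values, and leaving out each library. The fit was also run on simulated data, and the outcome is not given here.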

Additional observations from a re-analysis of the deposited data

How the results depend on the processing

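The labels give no replicate numbers, and the preparation, 1 library of each kind per stage, is the block of the model; without that term 22 genes were higher at G14.5 than at G0 and 27 lower at P7L than at G14.5. Of 43 calls of single genes, none changed direction under the 16 alternatives and 14 were kept in all: those of Creb3l2, Creld2, Manf, Pdia3 and Txndc11 in both comparisons with G14.5, of Sec61a1 at G14.5 against G0, and of Calr, Hspa5 and Ssr3 at P7L against G14.5.

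The 18 genes higher at G14.5 than at G0 became 8 and 7 with limma on the authors' values (pseudocounts 1 and 0.1), and 9 to 20 when 1 library was left out, the 9 when G14.5 liver tissue was left out. The 25 lower at P7L than at G14.5 became 10 with either pseudocount, and 9 to 32 when 1 library was left out (13 without either G14.5 library, 9 without P7L liver tissue, 12 without P7L perfusion). Leaving out a library leaves fewer samples; for the authors' values the cause was not tested. Of counts at 0, DESeq2 gave 1 lower at G14.5, 5 lower at P7L than at G0 and 1 higher at P7L than at G14.5. Without the preparation term 1 gene, and with thinned nuclei 3, were lower at P7L than at G0. With 1 library left out the ranges were 0 to 1 for lower at G14.5, 0 to 2 for lower and 0 to 1 for higher at P7L than at G0 (2 without G0 perfusion), and 0 to 1 for higher at P7L than at G14.5.

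No called value changed direction, but uncalled values did. At P7L against G0, where no gene was called, up to 8 of the 40 turned (8 without G0 liver tissue, 7 without P7L liver tissue). At G14.5 against G0, with library size alone, Ddit3 was -0.01 and Creb3l3 -0.10. With the authors' values Dnajb9 was -0.15 and -0.25 and Creb3l3 -0.12 and -0.13. With 1 library left out, Dnajb9 ran from -0.05 to 0.45, Atf4 from -0.04 to 0.49, Ddit3 from -0.44 to 0.72, Creb3l3 from -0.06 to 0.09 and Edem3 from -0.05 to 0.77. At P7L against G14.5 Creb3l3 was 0.17 with library size alone, 0.15 with either pseudocount, 0.02 with thinned nuclei and -0.07 to 0.01 with 1 library left out, and Ddit3 ran from -0.22 to 0.49. Of the sums at P7L against G0, degradation was -0.19 without Herpud1 (0.33 with it) and translocation 0.00 with library size alone (-0.08 with TMM). With library size alone the median log2 fold change of all genes was -0.13 at G14.5 against G0 and 0.20 at P7L against G14.5, against -0.01 and 0.00 with TMM.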
